A study of Mus musculus with 12 samples.

Results

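Enteroids carrying a deletion of Hdac1 were compared directly with enteroids carrying a deletion of Hdac2, to ask which genes and functions set the loss of one deacetylase apart from the loss of the other. The comparison used the 4 Hdac1-deleted and the 4 Hdac2-deleted libraries of the 12 libraries in the study, and the 4 control libraries served only to place each level. Of 17972 genes present in both deposited count tables, 14111 passed the filter on low counts and were tested. Enteroids are 3-dimensional epithelial cultures grown from intestinal crypts, here from the jejunum of mice of mixed C57BL/6J, 129SV and CD1 background. In the Hdac1-deleted group a floxed Hdac1 allele, and in the Hdac2-deleted group a floxed Hdac2 allele, was removed by Cre recombinase driven by the villin promoter, which is active in intestinal epithelial cells, and control enteroids kept both genes. All cultures were grown in Matrigel for 5 days in medium with EGF, Noggin and R-spondin 1. The study's methods give crypts from 1 mouse per genotype, so that 4 libraries need not stand for 4 animals. A difference between the cultures of these mice cannot be told apart from a difference between the genotypes, and p-values measure only the spread between the libraries of a group.

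HDAC1 and HDAC2 are closely related class I histone deacetylases that act as the catalytic subunits of the Sin3, NuRD and CoREST corepressor complexes. They remove acetyl groups from histone tails and from other proteins, and either can occupy the same complexes. In the intestinal epithelium they are known for roles in crypt proliferation, in secretory cell fate and in the response of the epithelium to inflammatory signals.

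Total counts per library ranged from 20693200 to 30658628 over the 8 mutant libraries. Levels are given as CPM (a gene's counts relative to the library's total after TMM scaling), and CPM is not divided by gene length, so that levels are compared between libraries and not between genes. Differences are log2 differences, Hdac1-deleted minus Hdac2-deleted, so that a positive value marks a higher level in Hdac1-deleted enteroids, and a value in parentheses after a gene is this direct log2 difference. A mean level is given ± its SD over the 4 libraries of a group (n = 4), Hdac1-deleted before Hdac2-deleted. Hdac1 stood at 3.37, 3.66, 5.09 and 4.8 CPM in the Hdac1-deleted libraries and at 76.7, 77, 78.5 and 68.7 CPM in the Hdac2-deleted libraries, against 87.5 to 94.4 CPM in control. Hdac2 stood at 114, 114, 113 and 106 CPM in the Hdac1-deleted and at 77.9, 78.8, 73.8 and 73.2 CPM in the Hdac2-deleted libraries, against 132 to 141 CPM in control. Each deleted gene was lowest in the libraries labelled with its deletion, with no overlap, and more than 70 CPM of Hdac2 was still counted in Hdac2-deleted libraries. Counts over a whole gene do not separate transcripts that lack the deleted exons from full ones. The study itself reported each deletion in RNA by RT-PCR and in protein by Western blot and immunofluorescence. Epithelial markers were present in every library, with summed levels of 9 enterocyte markers of 13249 to 15420.2 CPM in Hdac1-deleted and 11758 to 12789.6 CPM in Hdac2-deleted enteroids. Of 17 markers of mesenchymal, endothelial, immune, glial and muscle cells 6 were listed in both tables, with sums per cell type of 0.042 to 1.05 CPM in any library. Xist, the RNA that coats the inactive X chromosome, stood at 1.41 to 1.72 CPM in control and at 856, 776, 963 and 1078 CPM in Hdac1-deleted and 537, 494, 677 and 629 CPM in Hdac2-deleted libraries. Control therefore differed from both mutants in Xist. Of 8 sex chromosome genes looked up, only Xist, Jpx, Tsix and Ftx, all of the X chromosome, were listed in both tables. The Y-linked genes looked up were not. A table leaves out genes with fewer than 10 counts over its libraries, the control libraries included. The sex of the mice is not given in the sources used here, and its part in levels against control was not tested.

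In the direct comparison, 369 genes were more than 2-fold higher in Hdac1-deleted and 371 more than 2-fold higher in Hdac2-deleted enteroids at an adjusted p of at most 0.05 (edgeR's quasi-likelihood test with Benjamini-Hochberg adjustment), which is 2.61% and 2.63% of the genes tested and 5.24% together. These genes are termed called below. Counting differences of any size, 3289 genes were higher in Hdac1-deleted (23.3%) and 3428 in Hdac2-deleted enteroids (24.3%), 47.6% of all genes tested. The levels of 5995 genes, 42.5%, did not overlap between the 4 and the 4 libraries. Among the called genes, 352 of 369 and 362 of 371 did not overlap. Differences past 4-fold were found in 95 genes higher in Hdac1-deleted and in 106 genes higher in Hdac2-deleted enteroids, and differences past 16-fold in 18 and 16 genes. Protein-coding genes made up 264 of the 369 and 297 of the 371, against 87.4% of all genes tested, while 34 and 31 were processed pseudogenes, whose reads can be shared with the parent gene.

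The called genes differed in where the control level lay. Of the 369 genes higher in Hdac1-deleted enteroids, the mean control level lay below both mutants in 174, between them in 149 and above both in 46, and it was nearer to the Hdac2-deleted level in 270. Of the 371 genes higher in Hdac2-deleted enteroids, the mean control level lay between the mutants in 190, below both in 93 and above both in 88, and it was nearer to the Hdac2-deleted level in 190. Protein-coding genes of chromosome 19 had median log2 differences from control of -0.525 in Hdac1-deleted and -0.511 in Hdac2-deleted enteroids. The part of this shift in these counts, and in control levels given for genes of that chromosome, was not tested.

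**Figure D1:**
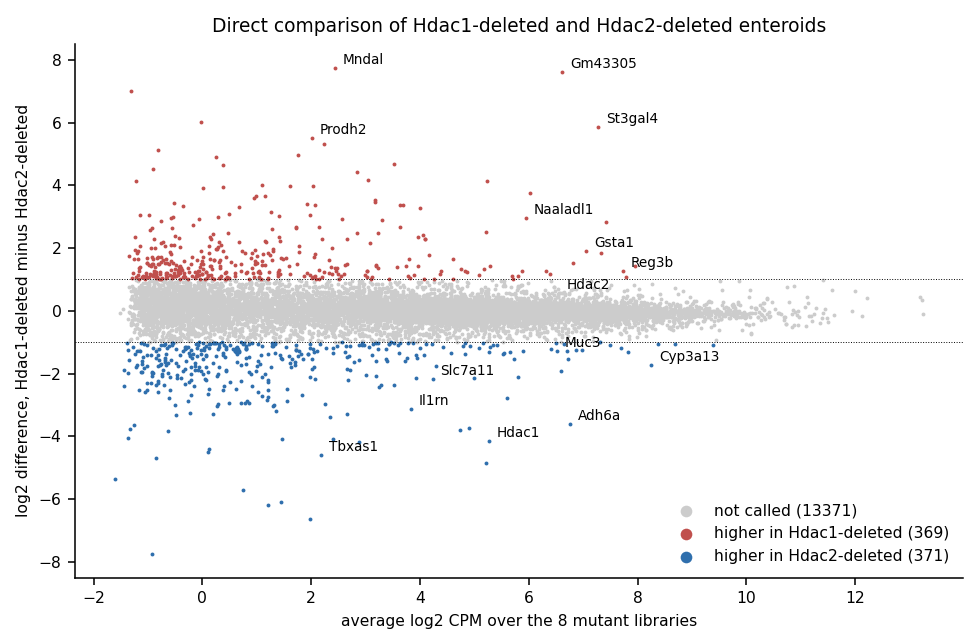
Log2 difference between Hdac1-deleted and Hdac2-deleted enteroids (vertical axis) against the average level in log2 CPM over the 8 libraries (horizontal axis), with 1 point per tested gene and called genes in colour. The 369 genes above the zero line were higher in Hdac1-deleted and the 371 below it higher in Hdac2-deleted enteroids.

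The largest differences among well-expressed protein-coding genes higher in Hdac1-deleted enteroids were in an interferon-inducible gene, a sialyltransferase and a set of enzymes, receptors and transporters. St3gal4, at chr9:35046576-35119268, encodes a sialyltransferase that caps glycans with sialic acid. It stood at 284, 296, 299.8 and 326 CPM in Hdac1-deleted and at 5.27, 5.51, 6.64 and 3.51 CPM in Hdac2-deleted enteroids, against 7.07 to 8.45 CPM in control. All 4 Hdac1-deleted libraries lay far above the other 8, with a direct log2 difference of 5.85 (standard error 0.11, edgeR adjusted p = 2.73e-10). Mndal, at chr1:173849126-173942491, belongs to the Ifi200 family of interferon-inducible DNA-binding proteins. Its level was 6.56, 10.4, 11.2 and 11.1 CPM in Hdac1-deleted, 0.0737, 0.0391, 0.0485 and 0 CPM in Hdac2-deleted and 1.81 to 2.11 CPM in control libraries. Control lay between the mutants, with a direct log2 difference of 7.74 (standard error 0.38, edgeR adjusted p = 1.38e-09). Pnp2, a purine nucleoside phosphorylase whose reads may be shared with its close copy Pnp, had 19.08, 20.8, 20.4 and 22.9 CPM in Hdac1-deleted and 0.774, 1.09, 0.824 and 0.52 CPM in Hdac2-deleted libraries, with a direct log2 difference of 4.68 (standard error 0.12, edgeR adjusted p = 4.55e-19). Slc34a2, the sodium-dependent phosphate transporter of the brush border, had 16.9, 14.5, 14.3 and 16.4 CPM against 1.11, 1.25, 1.79 and 1.47 CPM, with a direct log2 difference of 3.48 (standard error 0.12, edgeR adjusted p = 4.09e-17). Tlr1, a receptor for bacterial lipopeptides, had 15.5, 16.1, 14.9 and 15.8 CPM against 1.07, 1.37, 1.7 and 1.26 CPM, with control at 8.19 to 9.01 CPM and a direct log2 difference of 3.55 (standard error 0.11, edgeR adjusted p = 5.43e-18). For both Pnp2 and Slc34a2 the Hdac2-deleted libraries lay near control, whereas for Tlr1 control lay between the mutants. The other genes of this group were Prodh2, an enzyme of hydroxyproline breakdown (5.50), the secreted ribonuclease Rnase1 (5.31), the sodium channel subunit Scn2b (4.42), Crym, a thyroid hormone-binding protein (3.98), and the heme-binding protein Hebp2 (3.39), all at an adjusted p below 0.05.

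The largest differences in the other direction included Hdac1 itself and genes of alcohol, prostanoid and immune signalling. Adh6a, an alcohol dehydrogenase at chr3:138313286-138331134, stood at 15.9, 16.9, 17.1 and 17 CPM in Hdac1-deleted and at 204, 193, 198 and 216 CPM in Hdac2-deleted libraries. Control libraries, at 181 to 201 CPM, overlapped with the Hdac2-deleted ones, with a direct log2 difference of -3.60 (standard error 0.042, edgeR adjusted p = 8.87e-26). Il1rn, the secreted antagonist of the interleukin-1 receptor, stood at 3.34, 3.37, 2.56 and 2.95 CPM in Hdac1-deleted, 23.9, 28.9, 30.3 and 24.2 CPM in Hdac2-deleted and 6.3 to 8.58 CPM in control libraries. Its control level lay between the mutants, with a direct log2 difference of -3.13 (standard error 0.10, edgeR adjusted p = 3.48e-15). Tbxas1, the thromboxane synthase, had 0.3, 0.421, 0.328 and 0.473 CPM in Hdac1-deleted and 9.39, 10.04, 9.69 and 7.98 CPM in Hdac2-deleted libraries, with a direct log2 difference of -4.59 (standard error 0.16, edgeR adjusted p = 5.55e-17). Ubash3b, a protein tyrosine phosphatase that dampens receptor signalling, had 0.6, 1.43, 1.22 and 0.436 CPM against 9.32, 9.8, 9.99 and 10.1 CPM, with a direct log2 difference of -3.37 (standard error 0.19, edgeR adjusted p = 3.53e-10). Control libraries stood at 8.55 to 9.96 CPM for Tbxas1, overlapping with the Hdac2-deleted ones, and at 6.03 to 6.9 CPM for Ubash3b, between the mutants. Psca, a surface protein of the Ly6 family, had 0.787, 1.04, 1.22 and 1.38 CPM against 8.51, 9.61, 8.24 and 8.89 CPM, with control at 0.495 to 0.809 CPM and a direct log2 difference of -2.99 (standard error 0.13, edgeR adjusted p = 7.39e-15). For Psca it was the Hdac2-deleted libraries that stood apart from the other 8. The remaining genes were Asb4, a substrate adaptor of ubiquitin ligases (-4.10), the small proline-rich protein Sprr2a2 (-3.29), and Gm4737 (-3.74), whose reads may be shared with related genes.

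**Figure D2:**
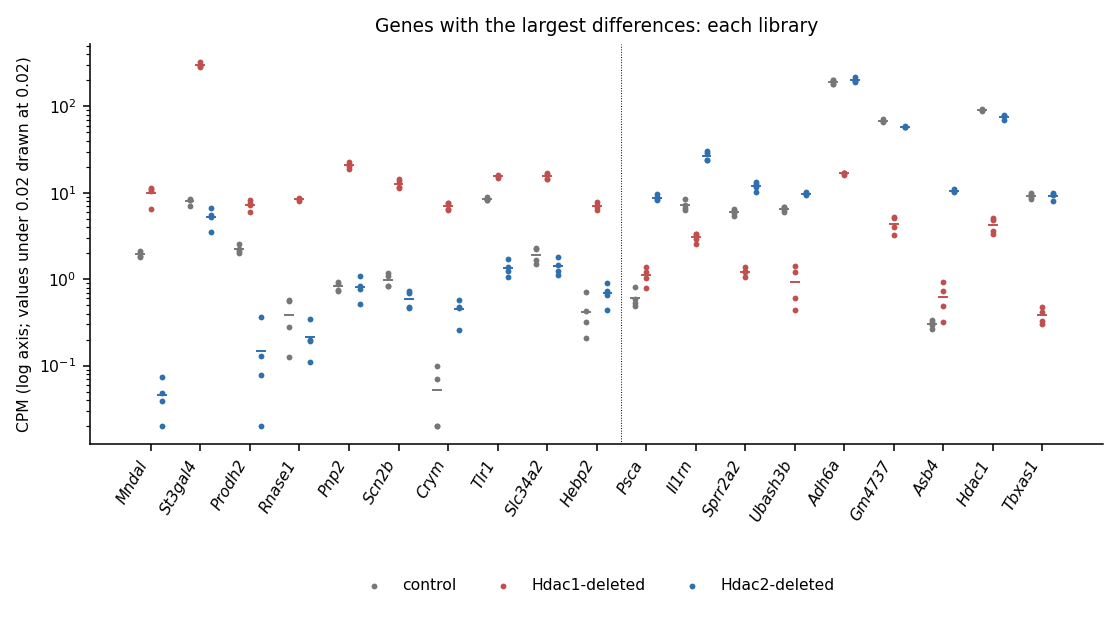
Level of the named genes with the largest direct differences in each library, on a log axis in CPM whose lowest mark also holds values under it, with 1 point per library, a bar at the mean and colour for control, Hdac1-deleted and Hdac2-deleted enteroids. The 4 Hdac1-deleted and 4 Hdac2-deleted points of a gene do not overlap, as the rule for naming them required, and the control points lie beside one mutant for genes such as Adh6a and between the mutants for genes such as Mndal and Il1rn.

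Some genes moved in opposite directions against control, passing the 0.05 limit in both comparisons, which share the 4 control libraries. For St3gal4 the log2 differences from control were 5.25 in Hdac1-deleted and -0.61 in Hdac2-deleted enteroids. For Mndal they were 2.35 in Hdac1-deleted and -5.39 in Hdac2-deleted enteroids, for Prodh2 1.71 in Hdac1-deleted and -3.80 in Hdac2-deleted enteroids and for Scn2b 3.72 in Hdac1-deleted and -0.70 in Hdac2-deleted enteroids. Besides Mndal, the largest direct differences among these genes were in Gm43305, annotated as a processed transcript with no protein product, and in Gm9008. Gm43305 stood at 212, 192, 182 and 179 CPM in Hdac1-deleted, 0.7, 0.937, 1.26 and 1.04 CPM in Hdac2-deleted and 1.43 to 1.78 CPM in control libraries. Gm9008 stood at 0.075, 0.0972, 0.0985 and 0.0364 CPM in Hdac1-deleted, 8.47, 8.55, 8.1 and 8.11 CPM in Hdac2-deleted and 4.89 to 6.38 CPM in control libraries. The direct difference was 7.62 for Gm43305 and -6.65 for Gm9008, and reads of either may be shared with related or overlapping genes.

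**Figure D3:**
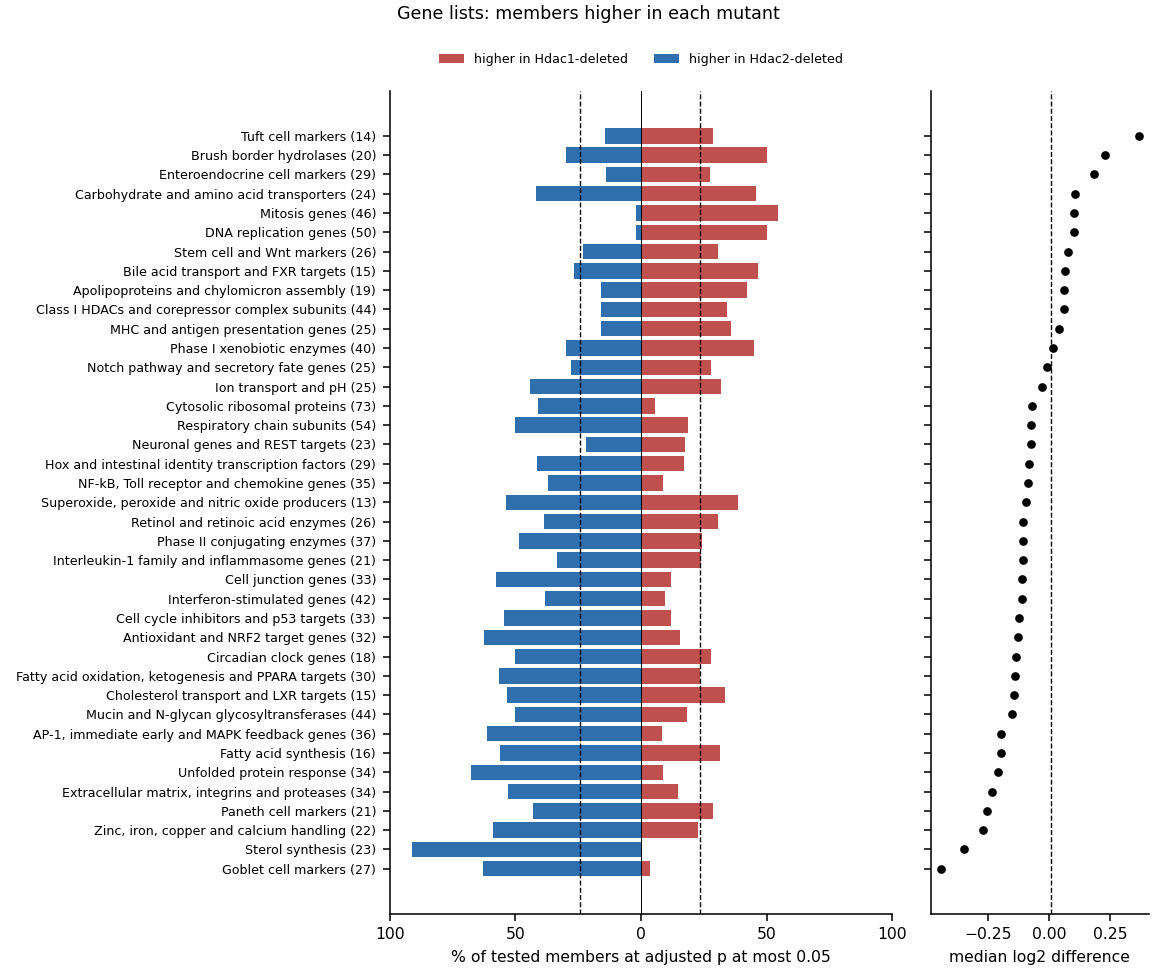
Percentage of the tested members of each functional gene list that were higher in Hdac1-deleted or higher in Hdac2-deleted enteroids with an adjusted p not above 0.05 (bars to either side of zero, left panel), and the median log2 difference of each list (right panel), for lists with at least 10 tested members, with dashed lines at the values over all tested genes. DNA replication and mitosis lists extend almost wholly to the Hdac1-deleted side, and the sterol synthesis, goblet cell and unfolded protein response lists almost wholly to the Hdac2-deleted side.

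Functional groups were described by counting, among the tested members of each list, those higher in either mutant at an adjusted p of at most 0.05, to be read against the 23.3% and 24.3% of all genes tested and against a median log2 difference of 0.006 over all of them. The lists were not tested as sets.

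Genes of the secretory lineage that makes mucus were mostly higher in Hdac2-deleted enteroids. Goblet cells secrete gel-forming mucins and the proteins that organise the mucus layer. Of 27 goblet cell markers tested, 17 were higher in Hdac2-deleted and 1 in Hdac1-deleted enteroids, with a median log2 difference of -0.44. Muc3, a transmembrane mucin, stood at 58.1, 56.2, 50.8 and 51.8 CPM in Hdac1-deleted and 125, 118, 144 and 140.4 CPM in Hdac2-deleted libraries, with a direct log2 difference of -1.28 (standard error 0.071, edgeR adjusted p = 1.84e-07). The Hdac1-deleted libraries overlapped with control, at 46.2 to 53.1 CPM, and the Hdac2-deleted ones lay above. Tff3, the trefoil peptide of goblet cells, stood at 302, 331, 333 and 293 CPM in Hdac1-deleted, 473, 479, 466 and 472 CPM in Hdac2-deleted and 398 to 441 CPM in control libraries. Control lay between the mutants, with a direct log2 difference of -0.59 (standard error 0.035, edgeR adjusted p = 6.74e-12). Clca1 (-0.91), a secreted protease that processes mucus, the mucus proteins Fcgbp (-0.74) and Zg16 (-0.51), the secreted goblet cell product Retnlb (-0.72), the kallikrein Klk1 (-0.92), Fer1l6 (-0.91) and the disulfide isomerase Agr2 (-0.38) were higher in Hdac2-deleted enteroids. Muc2, the main gel-forming mucin, had 88.7, 85.9, 73.1 and 84.6 CPM against 76.4, 70.9, 85.2 and 99.2 CPM, which overlapped, with a log2 difference of 0.0061. Atoh1 (-0.14) and Spdef (0.053), the transcription factors of secretory and goblet fate, did not pass the test. The single marker higher in Hdac1-deleted enteroids was the transcription factor Foxa3 (0.18). In these bulk cultures fewer cells of a type and less RNA per cell cannot be told apart.

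Paneth cells, the antimicrobial secretory cells of the crypt base, gave a split pattern. Of 21 markers, 6 were higher in Hdac1-deleted and 9 in Hdac2-deleted enteroids. Reg3b, an antibacterial C-type lectin, stood at 311, 311, 289 and 291 CPM in Hdac1-deleted, 130.4, 117, 119 and 132 CPM in Hdac2-deleted and 10.5 to 16.5 CPM in control libraries. Both mutants lay above control, the Hdac1-deleted one further, with a direct log2 difference of 1.27 (standard error 0.039, edgeR adjusted p = 1.04e-15). Ang4, an antimicrobial ribonuclease, stood at 199, 209.5, 221 and 199 CPM in Hdac1-deleted, 364, 371, 363 and 356 CPM in Hdac2-deleted and 303 to 341 CPM in control libraries. Hdac1-deleted libraries lay below control and Hdac2-deleted ones above, with a direct log2 difference of -0.81 (standard error 0.033, edgeR adjusted p = 1.33e-15). Mptx1 and Mptx2, pentraxins of the Paneth cell, differed in opposite directions, with Mptx1 at 165 ± 12.2 CPM in Hdac1-deleted and 57 ± 3.58 CPM in Hdac2-deleted enteroids, and Mptx2 at 74.3 ± 6.39 CPM and 178 ± 8.59 CPM. The 2 genes are close relatives, and how reads that match both were counted is not given in the sources used here. Reg3a (1.07) and Defa5 (0.95) were higher in Hdac1-deleted enteroids, whereas the protease Mmp7 (-0.66), which activates defensins, and Spink4 (-0.63) were higher in Hdac2-deleted ones. Lyz2 was below the filter on low counts.

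In the enteroendocrine, tuft cell and stem cell lists, 41.4%, 42.9% and 53.8% of tested members passed in either direction, against 47.6% of all genes. Their median log2 differences were 0.18, 0.37 and 0.078 in the same order. Of 29 enteroendocrine markers, 8 were higher in Hdac1-deleted and 4 in Hdac2-deleted enteroids. Nts, the peptide neurotensin, had 3.43 ± 0.399 CPM in Hdac1-deleted and 1.14 ± 0.308 CPM in Hdac2-deleted enteroids, and somatostatin (Sst, 0.89), glucagon (Gcg, 0.81) and chromogranin A (Chga, 0.32) were also higher in Hdac1-deleted enteroids, whereas ghrelin (Ghrl, -0.81) was lower. Of 14 tuft cell markers 4 were higher in Hdac1-deleted and 2 in Hdac2-deleted enteroids. Pou2f3, the transcription factor on which tuft cells depend, stood at 2.74, 3.24, 3.02 and 1.56 CPM against 1.18, 1.52, 1.21 and 1.34 CPM, with a direct log2 difference of 1.01 (standard error 0.20, edgeR adjusted p = 0.000289). Trpm5 (0.81) and Dclk1 (0.71) were higher in the same direction, all at levels of a few CPM or less, and Dclk1 did not pass the test without the first (edgeR adjusted p = 0.0762) or the second Hdac1-deleted library (0.0642). Of 26 stem cell and Wnt genes, 8 were higher in Hdac1-deleted and 6 in Hdac2-deleted enteroids. The stem cell receptor Lgr5 stood at 152, 150.2, 152 and 136 CPM and 149, 152, 159 and 159 CPM, which overlapped (-0.069), against 232 to 265 CPM in control. Olfm4, a secreted stem cell marker (0.41), and the telomerase subunit Tert (0.89) were higher in Hdac1-deleted, and Prom1 (-0.60) and Ascl2 (-0.36) higher in Hdac2-deleted enteroids.

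Genes of sterol synthesis were nearly all higher in Hdac2-deleted enteroids. The pathway turns acetyl-CoA into cholesterol and is driven by SREBP2, which INSIG1 restrains when sterols are plentiful. Of 23 genes tested, 21 were higher in Hdac2-deleted and 0 in Hdac1-deleted enteroids, with a median log2 difference of -0.35. Cyp51, the lanosterol demethylase, stood at 564, 575, 563 and 580.5 CPM in Hdac1-deleted, 883, 869, 859 and 893 CPM in Hdac2-deleted and 667 to 686 CPM in control libraries. Control lay between the mutants, with a direct log2 difference of -0.62 (standard error 0.027, edgeR adjusted p = 7.05e-15). Insig1 stood at 733, 751, 749 and 811 CPM against 1182, 1183, 1187 and 1149 CPM, with a direct log2 difference of -0.63 (standard error 0.031, edgeR adjusted p = 7.73e-14). Mvd (-0.57), Sqle (-0.56), Fdps (-0.53) and Srebf2 (-0.37) were higher in Hdac2-deleted enteroids. No gene of the list was past 2-fold. For 17 genes of the list a RefSeq promoter matched (GRCm38.p6, 250 bases before to 50 after the start, both strands searched). The letters CCAAT were found in 94.1% of them, against 37.4% of all promoters of that length and 43.2% of tested genes with a promoter. The sterol element letters TCACNCCAC were found in 1 gene, 5.88%, against 1.24% and 1.41%. CCAAT was also in 82.1% of the matched genes of the unfolded protein response list. It was in 73% of mitosis and 63.4% of DNA replication genes, lists with more members higher in Hdac1-deleted enteroids. Here and below, a gene counts once if any of its promoters holds the letters, while shares of all promoters count each promoter.

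**Figure D4:**
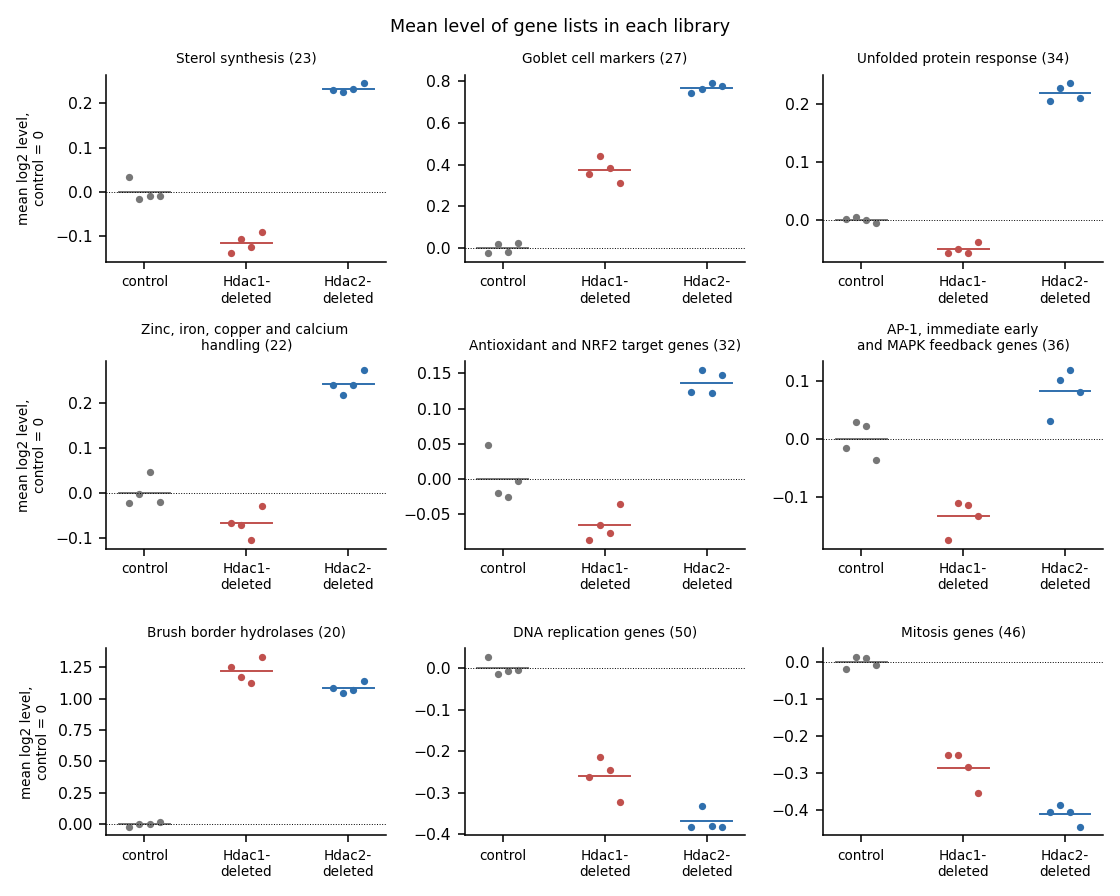
Mean over the tested members of selected gene lists of each library's log2 CPM relative to the control mean (vertical axis), with 1 point per library. Hdac1-deleted and Hdac2-deleted points do not overlap in 8 of the 9 lists, while those of the brush border hydrolases do, and the DNA replication and mitosis lists lie below control in both mutants.

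Lipid handling beyond synthesis divided by function. Of 15 cholesterol transport genes, 5 were higher in Hdac1-deleted and 8 in Hdac2-deleted enteroids. The 5 higher in Hdac1-deleted enteroids held the efflux transporter Abca1, at 13.1, 9.07, 9.53 and 13.1 CPM against 4.27, 4.61, 5.14 and 4.6 CPM with a direct log2 difference of 1.27 (standard error 0.13, edgeR adjusted p = 8.55e-07), the sterol exporters Abcg5 (0.57) and Abcg8 (0.54), and the oxysterol receptors Nr1h3 (0.65) and Nr1h2 (0.11). The uptake genes Scarb1 (-0.65) and Npc1l1 (-0.25) were higher in Hdac2-deleted enteroids. Among 19 genes of chylomicron assembly 8 were higher in Hdac1-deleted and 3 in Hdac2-deleted enteroids, led by Pla2g12b (0.68), Apoc3 (0.64) and Apoa4 (0.63). Of 15 bile acid and FXR target genes, 7 were higher in Hdac1-deleted and 4 in Hdac2-deleted enteroids. Nr0b2, the small heterodimer partner induced by the bile acid receptor, stood at 3.34, 4.73, 4.2 and 5.02 CPM in Hdac1-deleted and 0.368, 0.664, 0.63 and 0.477 CPM in Hdac2-deleted libraries. Control libraries lay between, at 1.81 to 2.61 CPM, with a direct log2 difference of 3.02 (standard error 0.20, edgeR adjusted p = 1.13e-11). Baat (1.07), at less than 1 CPM on average in either mutant, and Abcc2 (0.71) were also higher in Hdac1-deleted enteroids. The receptor gene Nr1h4 itself (-0.21) was higher in Hdac2-deleted ones.

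Of 30 genes of fatty acid oxidation, ketogenesis and PPARA response, 7 were higher in Hdac1-deleted and 17 in Hdac2-deleted enteroids. Cyp4a10, a fatty acid hydroxylase, stood at 0.375, 0.486, 0.427 and 0.327 CPM in Hdac1-deleted, 2.95, 3.36, 3.15 and 3.04 CPM in Hdac2-deleted and 1.72 to 2.53 CPM in control libraries. Control lay between the mutants, with a direct log2 difference of -2.93 (standard error 0.19, edgeR adjusted p = 1.03e-11). Pdk4 (-1.72), which limits pyruvate oxidation, was called as well, at less than 1 CPM on average in either mutant. Acaa2 (0.54) and Hadh (0.29), late steps of the oxidation cycle, were higher in Hdac1-deleted enteroids. Fatty acid synthesis counted 5 genes higher in Hdac1-deleted and 9 in Hdac2-deleted enteroids of 16. Acacb, the acetyl-CoA carboxylase whose product restrains fatty acid import into mitochondria, had 1.05, 0.907, 0.788 and 0.582 CPM against 3.98, 3.94, 3.73 and 3.9 CPM, with a direct log2 difference of -2.22 (standard error 0.17, edgeR adjusted p = 1.11e-10). Acss2 (-0.63) and Fasn (-0.29) were higher in the same direction, and Mlxipl, the carbohydrate-response factor (0.69), in the opposite one.

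The retinoid list was split, with 8 of 26 genes higher in Hdac1-deleted and 10 in Hdac2-deleted enteroids. Bco2 (51.2 ± 1.75 CPM against 20.3 ± 1.96 CPM) and Bco1 (1.00), which cleave carotenoids, were higher in Hdac1-deleted enteroids. Rarb, a retinoic acid receptor that retinoic acid itself induces, stood at 0.75, 1.36, 1.02 and 1.24 CPM in Hdac1-deleted, 3.79, 4.41, 3.3 and 3.6 CPM in Hdac2-deleted and 4.83 to 6.04 CPM in control libraries. Cyp26b1, which degrades retinoic acid, stood at 8.06, 10.3, 11.9 and 7.42 CPM, 26, 26.8, 26.1 and 21.5 CPM and 51.8 to 63.9 CPM in the same order. Both genes were lower in Hdac1-deleted than in Hdac2-deleted enteroids, at -1.78 and -1.41, with control above both mutants.

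Genes that handle zinc, iron, copper and calcium were more often higher in Hdac2-deleted enteroids. In the duodenal and jejunal enterocyte, iron is reduced by CYBRD1, taken up by SLC11A2, stored in ferritin and exported by SLC40A1. Of 22 genes of metal handling, 13 were higher in Hdac2-deleted and 5 in Hdac1-deleted enteroids, and 5 were called, all in Hdac2-deleted enteroids. Slc40a1, the iron exporter ferroportin, stood at 70.0, 69.8, 71.6 and 67.6 CPM in Hdac1-deleted, 158, 168, 173 and 161 CPM in Hdac2-deleted and 151 to 162 CPM in control libraries. The Hdac1-deleted libraries were the ones below control, with a direct log2 difference of -1.24 (standard error 0.035, edgeR adjusted p = 1.47e-18). Slc39a4, the zinc importer of the brush border, stood at 52.9, 45.7, 51.8 and 56.4 CPM against 123, 122, 123 and 114 CPM, with control at 62.5 to 63.9 CPM and a direct log2 difference of -1.22 (standard error 0.051, edgeR adjusted p = 4.42e-12). Here the Hdac2-deleted libraries lay above the rest. Cybrd1 (-1.08), Slc11a2 (-1.07), the heme oxygenase Hmox1 (-1.41), the transferrin receptor Tfrc (-0.53) and the ferritin chains Fth1 (-0.44) and Ftl1 (-0.42) were higher in Hdac2-deleted enteroids. The metallothioneins Mt1 (0.44) and Mt2 (0.94) were higher in Hdac1-deleted ones.

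Of 32 antioxidant and NRF2 target genes, 5 were higher in Hdac1-deleted and 20 in Hdac2-deleted enteroids. Slc7a11, the cystine importer that feeds glutathione synthesis, stood at 6.37, 6.35, 7.62 and 7.64 CPM in Hdac1-deleted, 27.7, 36.4, 34.2 and 29.4 CPM in Hdac2-deleted and 19.5 to 26.6 CPM in control libraries. Control lay between, with a direct log2 difference of -2.19 (standard error 0.097, edgeR adjusted p = 8.23e-11). Gpx1 (-0.61), Gss (-0.48) and Gclc (-0.29), of glutathione use and synthesis, were higher in Hdac2-deleted, and Osgin1 (0.71) and Nqo1 (0.26) higher in Hdac1-deleted enteroids. The antioxidant element letters TGACNNNGC were in 8 of the 28 genes with a matched promoter, 28.6%, against 12.4% of all promoters and 17% of tested genes. The median log2 difference was -0.0985 in the genes with these letters and -0.127 in those without. Genes that make superoxide, peroxide or nitric oxide counted 5 higher in Hdac1-deleted and 7 in Hdac2-deleted enteroids of 13. Nos2, the inducible nitric oxide synthase (10.8 ± 1.75 CPM against 17.7 ± 1.15 CPM), Duox2 (-0.53), Nos3 (-1.18) and Xdh (-0.28) were higher in Hdac2-deleted, and the oxidase Nox1 (33.6 ± 1.46 CPM against 26.2 ± 2.28 CPM) and its subunits Noxa1 (0.32) and Cyba (0.39) higher in Hdac1-deleted enteroids.

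Enzymes that clear foreign compounds gave large differences in both directions. Of 40 phase I genes, 18 were higher in Hdac1-deleted and 12 in Hdac2-deleted enteroids, and of 37 conjugating enzymes 9 and 18. Cyp3a13, a cytochrome P450 at chr5:137892932-137921619, stood at 137, 145, 143 and 148 CPM in Hdac1-deleted, 467, 465, 475 and 477 CPM in Hdac2-deleted and 166 to 176 CPM in control libraries. The Hdac2-deleted libraries stood alone above the rest, with a direct log2 difference of -1.72 (standard error 0.029, edgeR adjusted p = 8.88e-23). Gsta1, a glutathione S-transferase, stood at 203, 202, 206 and 226 CPM in Hdac1-deleted, 55.5, 55.9, 58.3 and 53 CPM in Hdac2-deleted and 121 to 139.7 CPM in control libraries. Control lay between, with a direct log2 difference of 1.91 (standard error 0.04, edgeR adjusted p = 2.25e-20), and reads of Gsta1 may be shared with its close copy Gsta2 (0.0053). The P450 genes Cyp2d34 (1.42), Cyp2u1 (1.33), Cyp2c68 (0.97), Cyp2c55 (0.92) and Cyp3a11 (0.83) and the transferase Ugt2b36 (0.87) were higher in Hdac1-deleted enteroids. The carboxylesterases Ces1d (-0.81) and Ces2b (-0.70) and the sulfotransferase Sult1c2 (-0.88) were higher in Hdac2-deleted ones.

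The unfolded protein response list leaned towards Hdac2-deleted enteroids. The response is carried by PERK and ATF4, which induce amino acid synthesis and Ddit3, and by ATF6 and XBP1, which induce chaperones of the endoplasmic reticulum. Of 34 genes, 23 were higher in Hdac2-deleted and 3 in Hdac1-deleted enteroids, with a median log2 difference of -0.21. Chac1, a glutathione-degrading target of ATF4, stood at 7.2, 8.23, 8.54 and 8.51 CPM in Hdac1-deleted, 21.7, 24, 24.5 and 23.3 CPM in Hdac2-deleted and 19.2 to 22 CPM in control libraries. Asns, the asparagine synthetase, stood at 103, 106, 115 and 101 CPM, 206, 223, 224 and 201 CPM and 236 to 248 CPM in the same order. For both genes the Hdac1-deleted libraries lay below all others, with a direct log2 difference of -1.52 (standard error 0.068, edgeR adjusted p = 9.42e-15) for Chac1 and a direct log2 difference of -1.01 (standard error 0.043, edgeR adjusted p = 3.84e-12) for Asns. Ero1l, the oxidase that forms disulfide bonds, had 428 ± 10.02 CPM in Hdac1-deleted and 915 ± 33.8 CPM in Hdac2-deleted enteroids. Ddit3 (-0.79), Trib3 (-0.75), Atf4 (-0.45) and Creb3l1 (-0.60) followed in the same direction. The chaperones differed less, with Hspa5 at -0.30, Hsp90b1 at -0.11 and Pdia4 at -0.12, and Calr (0.0082) and Canx (0.0036) did not pass the test. Ern1, the sensor that splices Xbp1, was higher in Hdac1-deleted enteroids (0.50). The summed level of 6 goblet cell markers was 1714 to 1836 CPM in Hdac1-deleted and 2655 to 2886 CPM in Hdac2-deleted libraries, and its part in the difference of this list was not tested.

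Promoter letters of this list were read from RefSeq, in which 28 of its 34 tested genes matched. The sites are shown because both elements are known from genes of this response, and they were found in only some of its chaperone genes and ATF4 targets. The first set matches the endoplasmic reticulum stress element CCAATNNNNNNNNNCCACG, with the fixed letters in capitals:
Hspa5, chr2:34772020-34772048, plus strand: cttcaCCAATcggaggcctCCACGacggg
Pdia6, chr12:17266486-17266514, plus strand: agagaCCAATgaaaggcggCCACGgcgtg
Creld2, chr15:88819515-88819543, minus strand: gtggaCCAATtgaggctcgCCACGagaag
Canx, chr11:50325795-50325823, minus strand: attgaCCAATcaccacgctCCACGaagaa
Calr, chr8:84847070-84847098, plus strand: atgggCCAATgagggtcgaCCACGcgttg
The second set matches the amino acid response element TGATGCAA, with the match in capitals:
Chac1, chr2:119351044-119351061, minus strand: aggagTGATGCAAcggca
Atf3, chr1:191183431-191183448, plus strand: cttggTGATGCAAgtgcg
Herpud1, chr8:94386312-94386329, minus strand: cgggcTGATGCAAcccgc
The first element was found in 8 of the 28 genes, 28.6%, against 0.119% of all promoters of the same length and 0.161% of tested genes. The second was found in 3, 10.7%, against 0.895% and 0.747%. The first element includes the letters CCAAT, which were also counted on their own for this list and for the sterol, mitosis and DNA replication genes. In the matched genes of this list the median log2 difference was -0.116 with CCAAT and -0.52 without. Of the 8 genes with the first element, 4 were higher in Hdac2-deleted enteroids and none in Hdac1-deleted ones. Their median log2 difference was -0.054, against -0.19 in the matched genes of the list without the element. The 3 genes with the second element, Chac1, Atf3 (-0.30) and Herpud1 (-0.53), were all higher in Hdac2-deleted enteroids. Their median was -0.53, against -0.11 in the matched genes without the element. A match describes the letters in the window and does not show that a factor binds there.

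Proliferation genes leaned the other way, by small amounts. Of 50 DNA replication genes 25 were higher in Hdac1-deleted and 1 in Hdac2-deleted enteroids, with a median log2 difference of 0.10, and of 46 mitosis genes 25 and 1, with a median of 0.10. Pttg1, the securin that holds sister chromatids together, stood at 19, 20.2, 21.3 and 18.3 CPM in Hdac1-deleted, 9.76, 8.12, 9.02 and 8.93 CPM in Hdac2-deleted and 22.4 to 26.6 CPM in control libraries. It was the one called gene of both lists, with a direct log2 difference of 1.14 (standard error 0.071, edgeR adjusted p = 3.88e-12), and both mutants lay below control. E2f2, an activator of replication genes, stood at 100, 91.5, 93.8 and 102 CPM against 67.1, 64.4, 63.1 and 65.7 CPM, with control at 37.9 to 41.2 CPM and a direct log2 difference of 0.57 (standard error 0.038, edgeR adjusted p = 1.4e-11). Spc24 (0.63), of the kinetochore, and the centromeric histone Cenpa (0.36) were higher in Hdac1-deleted enteroids, Mki67 was at 0.19, and Pcna (0.023) and Top2a (-0.033) did not pass the test. The letters TTTGAA of the cell cycle homology region were found in 27 of 37 mitosis genes with a matched promoter, 73%. They were found in 17.9% of all promoters and 14.3% of tested genes. The median log2 difference was 0.0993 in the mitosis genes with these letters and 0.0942 in those without. A window of the Cenpa promoter is shown, with the match in capitals:
Cenpa, chr5:30666897-30666912, plus strand: gatttTTTGAActgct
The E2F letters TTTCGCGC were found in 7 of 41 replication genes with a matched promoter, 17.1%, against 0.323% of all promoters and 0.747% of tested genes. The median log2 difference was 0.0911 in the replication genes with these letters and 0.0933 in those without. The summed level of 4 crypt base stem cell markers was 1846 to 2161 CPM in Hdac1-deleted and 1531 to 1712 CPM in Hdac2-deleted libraries, and its part in these differences was not tested. Olfm4 made up most of this sum, at 1521 ± 106 CPM against 1147 ± 81.5 CPM. Lgr5 overlapped between the mutants, and Ascl2 was higher in Hdac2-deleted enteroids. Cell cycle inhibitors and p53 targets counted 4 of 33 higher in Hdac1-deleted and 18 in Hdac2-deleted enteroids. Cdkn1a, the inhibitor p21, stood at 244, 246, 243 and 259 CPM in Hdac1-deleted, 360.4, 358, 371 and 373 CPM in Hdac2-deleted and 234 to 252 CPM in control libraries. The Hdac2-deleted libraries lay above the others, with a direct log2 difference of -0.56 (standard error 0.029, edgeR adjusted p = 1.79e-13). Eda2r (-1.08) and Plk2 (-0.64) were higher in the same direction, and Bcl2l15, of the Bcl2 family, in the opposite one (0.50).

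Hydrolases of the brush border were more often higher in Hdac1-deleted enteroids. Of 20 hydrolases, 10 were higher in Hdac1-deleted and 6 in Hdac2-deleted enteroids, with a median of 0.23. Naaladl1, a peptidase, stood at 114, 95.4, 100.2 and 121 CPM in Hdac1-deleted, 13.7, 12.7, 13.7 and 15.6 CPM in Hdac2-deleted and 3.31 to 3.78 CPM in control libraries. Both mutants lay above control, with a direct log2 difference of 2.95 (standard error 0.099, edgeR adjusted p = 1.06e-08). Lactase (Lct, 0.84), Anpep (0.54), Mep1a (0.61) and sucrase-isomaltase (Sis, 0.41) were also higher in Hdac1-deleted enteroids. Akp3, an intestinal alkaline phosphatase, stood at 10.8, 11.2, 10.4 and 15.8 CPM in Hdac1-deleted and 51.1, 50.7, 60.7 and 52.5 CPM in Hdac2-deleted libraries, with a direct log2 difference of -2.16 (standard error 0.13, edgeR adjusted p = 2.62e-06). The fourth Hdac1-deleted library was the highest of its group, and the groups did not overlap. Enteropeptidase (Tmprss15, -2.29), at less than 1 CPM on average in either mutant, and Enpp3 (-1.04) were higher in Hdac2-deleted enteroids.

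Of 24 carbohydrate and amino acid transporters, 11 were higher in Hdac1-deleted and 10 in Hdac2-deleted enteroids. The brush border transporters for glucose (Slc5a1, 0.28), fructose (Slc2a5, 0.34), peptides (Slc15a1, 0.49) and neutral amino acids (Slc6a19, 0.61) were higher in Hdac1-deleted enteroids. The neutral amino acid exchanger Slc7a8 stood at 86.9, 86, 76.9 and 80.9 CPM against 32.1, 32.9, 32.9 and 38.5 CPM, with a direct log2 difference of 1.28 (standard error 0.053, edgeR adjusted p = 6.92e-13). The amino acid importers of growing cells, Slc38a1 (127 ± 7.77 CPM against 288 ± 15.1 CPM), Slc7a5 (-0.61) and Slc1a4 (-0.46), and the glucose transporter Slc2a1 (-0.35) were higher in Hdac2-deleted ones. Ion transport genes counted 8 of 25 higher in Hdac1-deleted and 11 in Hdac2-deleted enteroids. The carbonic anhydrase Car2 stood at 4.12, 3.89, 3.91 and 3.67 CPM against 18.9, 21.1, 20.9 and 18.8 CPM, with control at 6.13 to 7.17 CPM and a direct log2 difference of -2.35 (standard error 0.078, edgeR adjusted p = 2.84e-17). The sodium-proton exchanger Slc9a3 (0.75) and the chloride channel regulator Clca4a (0.86) were higher in Hdac1-deleted enteroids.

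Immune genes were divided by family. All 6 tested members of the Ifi200 family were higher in Hdac1-deleted enteroids and 5 were called. Ifi204 had 103 counts summed over the 4 Hdac1-deleted libraries and 2 over the 4 Hdac2-deleted ones, a ratio of CPM of 43 (95% interval 11.6 to 359.8, for counting error only). Mnda had 72 and 3 counts, a ratio of 20 (6.59 to 99.4), and Ifi203 187 and 10 counts, with a direct log2 difference of 3.90 (standard error 0.32, edgeR adjusted p = 6.74e-10). Ifi202b (2.04) and the DNA sensor Aim2 (45.5 ± 1.83 CPM against 30.4 ± 2.19 CPM) completed the family. These genes are related in sequence, so that reads may be shared between them. Other interferon-stimulated genes counted 4 of 42 higher in Hdac1-deleted and 16 in Hdac2-deleted enteroids. Ifit1bl1, of the IFIT family, had 3.41, 3.82, 3.45 and 3.67 CPM against 8.77, 11.1, 11.6 and 7.37 CPM, with a direct log2 difference of -1.43 (standard error 0.13, edgeR adjusted p = 3.52e-08). Stat2 (-0.26), Irf7 (-0.34), Rsad2 (-0.88) and Oas3 (-1.22) were higher in Hdac2-deleted, and Ifit2 (0.42) and Ifi27 (0.35) in Hdac1-deleted enteroids.

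Of 35 NF-kB, Toll receptor and chemokine genes, 3 were higher in Hdac1-deleted and 13 in Hdac2-deleted enteroids. Besides Tlr1, the NF-kB cofactor Nfkbiz (0.47) was higher in Hdac1-deleted enteroids. Tlr4 (-0.84), Tlr2 (-0.55), Tlr3 (-0.44) and the chemokines Ccl20 (3.68 ± 0.597 CPM against 7.33 ± 0.279 CPM) and Cxcl10 (-1.96) were higher in Hdac2-deleted ones. Cxcl10 was at less than 1 CPM on average in either mutant. In the interleukin-1 and inflammasome list, 5 of 21 were higher in Hdac1-deleted and 7 in Hdac2-deleted enteroids. Next to Il1rn, Nlrp10 (-2.52) and Nlrp1b (-0.95) were higher in Hdac2-deleted enteroids. Il18 stood at 40.6, 39.1, 41.1 and 44.7 CPM and 48.8, 39.2, 45.7 and 44.8 CPM, which overlapped (-0.11), while its decoy receptor Il18bp was higher in Hdac1-deleted enteroids (0.96). Of 25 antigen presentation genes, 9 were higher in Hdac1-deleted and 4 in Hdac2-deleted enteroids. The immunoproteasome subunit Psmb8 stood at 9.48, 9.33, 9.07 and 7.85 CPM against 3.57, 2.93, 3.34 and 2.82 CPM, with a direct log2 difference of 1.49 (standard error 0.10, edgeR adjusted p = 2.56e-11), and Psmb9 (0.56) and the peptide transporter Tap2 (0.36) were higher in the same direction.

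Genes of growth factor response and of contact with matrix and neighbouring cells were mostly higher in Hdac2-deleted enteroids. Of 36 immediate early genes, AP-1 subunits and MAPK feedback genes, 22 were higher in Hdac2-deleted and 3 in Hdac1-deleted enteroids, among them Fos (-0.84), Junb (-0.84), Egr1 (-0.34) and the phosphatases Dusp1 (-0.68) and Dusp4 (-0.35). The EGF receptor ligands differed among themselves. Areg, amphiregulin, stood at 28.1, 28.6, 30.6 and 29.7 CPM in Hdac1-deleted, 65.1, 75.5, 83.5 and 66.4 CPM in Hdac2-deleted and 56.7 to 64.1 CPM in control libraries. Hdac1-deleted libraries lay below control, with a direct log2 difference of -1.31 (standard error 0.077, edgeR adjusted p = 1.12e-07). Btc (18.3 ± 1.061 CPM against 33.2 ± 3.18 CPM) was higher in the same direction, while Ereg, epiregulin, was higher in Hdac1-deleted enteroids (1.86 ± 0.295 CPM against 0.563 ± 0.0916 CPM). The receptor Egfr (0.04) did not pass the test. Of 34 matrix, integrin and protease genes, 5 were higher in Hdac1-deleted and 18 in Hdac2-deleted enteroids. The laminin chain Lamb1 stood at 1.72, 1.72, 2.27 and 1.75 CPM against 5.82, 4.92, 5.33 and 5.77 CPM, with a direct log2 difference of -1.54 (standard error 0.13, edgeR adjusted p = 5.77e-10). The laminin chains Lama3 (-1.29) and Lamb3 (-0.81), the integrin Itga1 (-1.21) and the protease Mmp14 (-1.18) were higher in the same direction, and the protease inhibitors Timp2 (1.16) and Timp3 (1.12) in the opposite one. Cell junction genes counted 4 of 33 higher in Hdac1-deleted and 19 in Hdac2-deleted enteroids, with Dsg2, a desmosomal cadherin (-0.49), and Cldn4 (-0.65) against Cldn8 (1.20), all 3 of them junction proteins.

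Genes of glycan synthesis leaned towards Hdac2-deleted enteroids. Of 44 genes of the list, 22 were higher in Hdac2-deleted and 8 in Hdac1-deleted enteroids. The latter held St3gal4 and the sialyltransferases St6gal1 (3.59 ± 0.473 CPM against 0.959 ± 0.244 CPM), St6galnac6 (0.94) and St6galnac2 (0.79). The former held the fucosyltransferases Fut1 (-0.95) and Fut2 (-0.55), the transferases Galnt3 (-0.41) and Galnt6 (-0.54) that start O-glycans, and B3gnt5 (-1.39). St3gal1 (-0.32), a sialyltransferase too, was higher in Hdac2-deleted enteroids.

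Regulators of position and fate showed single genes with large differences. Of 29 Hox and intestinal identity factors, 5 were higher in Hdac1-deleted and 12 in Hdac2-deleted enteroids. Pdx1, a factor of pancreas and proximal intestine, stood at 1.72, 1.88, 2.07 and 1.93 CPM against 6.08, 6.37, 7.27 and 6.94 CPM, with control at 1.89 to 2.6 CPM and a direct log2 difference of -1.80 (standard error 0.12, edgeR adjusted p = 8.27e-12). Hoxa5 (-2.01, 0.388 ± 0.12 CPM against 1.58 ± 0.252 CPM), Hoxa3 (-1.20) and Hoxa2 (-0.73) were higher in Hdac2-deleted enteroids. Hoxb6 (1.82), at less than 1 CPM on average in either mutant, was higher in Hdac1-deleted ones, while Cdx2 (0.029) did not pass the test. The Notch and secretory fate list counted 7 higher in each mutant of 25. The receptor Notch3 stood at 1.84, 2.07, 1.71 and 1.45 CPM against 6.23, 7.07, 6.3 and 6.33 CPM, with a direct log2 difference of -1.87 (standard error 0.12, edgeR adjusted p = 9.75e-12), the ligands Jag2 (-0.85) and Jag1 (-0.25) were higher in the same direction, and the target Hes5 (1.05) in the opposite one, while Hes1 (-0.027) did not pass the test. Of 18 circadian clock genes, 5 were higher in Hdac1-deleted and 9 in Hdac2-deleted enteroids. The repressor Nr1d1 stood at 32.1, 30.3, 31.2 and 31.5 CPM in Hdac1-deleted, 60.1, 61.9, 61.6 and 63.7 CPM in Hdac2-deleted and 61.5 to 68.4 CPM in control libraries. Hdac1-deleted libraries lay below the rest, with a direct log2 difference of -0.98 (standard error 0.039, edgeR adjusted p = 9.54e-16), and the output genes Dbp (-0.81), Ciart (-0.69) and Tef (-0.64) differed the same way. Arntl, the activator that Nr1d1 represses (0.60), and Cry2 (0.46) were higher in Hdac1-deleted enteroids. The time of harvest is not given in the sources used here, and its part in the result was not tested.

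Among the deacetylases and their partners, 15 of 44 genes were higher in Hdac1-deleted and 7 in Hdac2-deleted enteroids. Apart from Hdac1, the called gene was Chd5 (-1.57), a remodeller mainly of neurons, at less than 1 CPM. The other class I members Hdac3 (-0.089) and Hdac8 (-0.0024, which did not pass the test) differed little. Germline genes counted 4 of 5 higher in Hdac1-deleted and 1 in Hdac2-deleted enteroids. Rec8, the meiotic cohesin, stood at 33.1, 35.6, 35 and 39.6 CPM in Hdac1-deleted, 12.3, 9.14, 12.9 and 11.2 CPM in Hdac2-deleted and 0 to 0.134 CPM in control libraries. Both mutants lay above control, with a direct log2 difference of 1.66 (standard error 0.083, edgeR adjusted p = 1.06e-10). Rhox5, a homeobox gene of the reproductive tract, was higher in Hdac2-deleted enteroids (0.264 ± 0.106 CPM against 2.21 ± 0.88 CPM). Of 23 neuronal genes, 4 were higher in Hdac1-deleted and 5 in Hdac2-deleted enteroids. Nrn1, neuritin, stood at 10.5, 9.98, 10.7 and 8.07 CPM against 2.06, 1.95, 2.13 and 1.82 CPM and had no counts in control, with a direct log2 difference of 2.30 (standard error 0.12, edgeR adjusted p = 1.01e-13), while the glutamate receptor subunit Grin1 (-1.35) and Map2 (-2.51) were higher in Hdac2-deleted enteroids. Of 9 tested markers of mesenchymal, endothelial, immune, glial and muscle cells, 2 were higher in Hdac1-deleted and 1 in Hdac2-deleted enteroids, and the macrophage receptor Csf1r stood at 0.73 ± 0.0635 CPM against 0.146 ± 0.0773 CPM. Pdgfrb, a receptor of mesenchymal cells, had 1.79 ± 0.0813 CPM against 1.15 ± 0.188 CPM, and the macrophage protein Cd68 0.948 ± 0.0778 CPM against 1.5 ± 0.126 CPM.

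Mitochondrial and nuclear genes of the respiratory chain differed in opposite directions. All 13 protein-coding genes of the mitochondrial genome were higher in Hdac1-deleted enteroids, with log2 differences from 0.44 to 1.72 and a median of 0.79, and 3 were called. Of 45 nuclear genes of the chain, 1 was higher in Hdac1-deleted and 27 in Hdac2-deleted enteroids, with a median of -0.088. The cytochrome b gene mt-Cytb stood at 3859, 3670.0, 3352 and 3592 CPM in Hdac1-deleted, 1895, 1626, 1795 and 1965 CPM in Hdac2-deleted and 1290.0 to 1429.9 CPM in control libraries. Both mutants lay above control, the Hdac1-deleted one further, with a direct log2 difference of 0.99 (standard error 0.06, edgeR adjusted p = 2.1e-07). The share of counts from the mitochondrial genome was 2.53% to 2.88% in Hdac1-deleted, 1.64% to 1.91% in Hdac2-deleted and 1.51% to 1.6% in control libraries. RNA quality per library is not given in the sources used here beyond a minimum, and its part in the result was not tested. Cytosolic ribosomal protein genes counted 4 of 73 higher in Hdac1-deleted and 30 in Hdac2-deleted enteroids, with a median of -0.073, and Rpl35a (0.51) and Rps24 (-0.32) differed the most, each with pseudogene copies that can share reads.

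Chromosome 15 and the mitochondrial genome stood apart in level from the other chromosomes with more than 1 protein-coding gene tested. The median log2 difference of the 482 protein-coding genes of chromosome 15 was -0.161, and 22 of its 536 tested genes were called higher in Hdac2-deleted and 6 higher in Hdac1-deleted enteroids. The medians of the same genes against control were -0.051 in Hdac1-deleted and 0.12 in Hdac2-deleted enteroids. Of the 21 tested mitochondrial genes 4 were called, 19%. Both tested genes that the annotation places on the Y chromosome, Erdr1 and Gm20775, were called higher in Hdac1-deleted enteroids, at log2 differences of 1.03 and 4.64. The Y-linked genes looked up above were not listed in both tables. Whether the reads of Erdr1 and Gm20775 came from the Y chromosome was not tested. Near the deleted genes the share called stayed close to the 5.24% of all genes, with 13 of 260 genes (5%) within 10 Mb of Hdac1 and 3 of 67 (4.48%) within 10 Mb of Hdac2. Of the X inactivation genes tested, Xist (0.65), near absent in control as given above, was higher in Hdac1-deleted enteroids, and Tsix (0.91) and Ftx (0.26) did not pass the test. Jpx (0.36) passed, but its groups overlapped, and it did not pass under DESeq2 (adjusted p = 0.0899) or without any one of 6 single libraries (edgeR adjusted p = 0.0792 to 0.137).

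**Figure D5:**
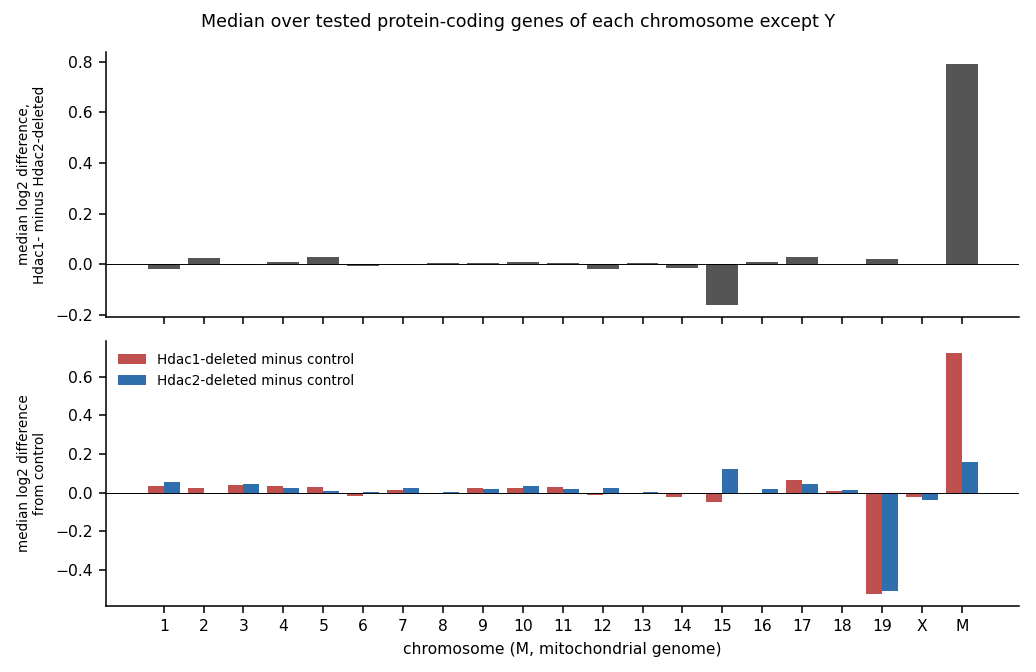
Median log2 difference, Hdac1-deleted minus Hdac2-deleted, of the tested protein-coding genes on each chromosome except Y (upper panel), and the median log2 difference of each mutant from the shared control (lower panel). Chromosome 15 lies below the other autosomes at -0.161 and the mitochondrial genome (M) above all others shown at 0.791, while chromosome 19 is low in both mutants against control (-0.525 and -0.511) and near 0 between them (0.019).

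Several called genes lay side by side and differed the same way. On chromosome 1 all 6 tested genes between Ifi204 and Mptx1, at chr1:173747293-174332873 in GRCm38, were higher in Hdac1-deleted enteroids, and they held 5 genes of the Ifi200 family. On chromosome 6 all 5 tested genes at chr6:48718607-48756368 were higher in Hdac1-deleted enteroids, namely Gimap1 and Gimap5, of the Gimap family of lymphocyte GTPases, the transcript Gimap1os opposite Gimap1, and Gm28053 and RP24-315D19.4. On chromosome 15, 8 of 11 tested genes at chr15:74714839-75159126 were higher in Hdac2-deleted enteroids, among them Psca, Lynx1, Ly6d, Ly6e and Ly6g, which encode related Ly6 surface proteins. On chromosome 7, 4 of 6 tested genes at chr7:104218793-104507849, Trim6, Trim5, Trim34b and Trim30d, were higher in Hdac2-deleted enteroids. These stretches were found by their values, and neighbouring related genes can share reads.

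A gene listed in only one of the deposited tables could not be tested, since it has no row for the other deletion. Of these, 704 were listed in the table of Hdac1-deleted and 253 in the table of Hdac2-deleted enteroids, and 18 and 3 had at least 10 counts in every mutant library. Slc15a2, a peptide transporter, had 179, 194, 227 and 195 counts in the Hdac1-deleted libraries, and Amph, amphiphysin, had 45, 49, 57 and 49. A gene left out of a table had fewer than 10 counts over the 8 libraries of that table, which left at most 7 counts of Slc15a2 and 8 of Amph over the 4 Hdac2-deleted libraries. In the Hdac2-deleted libraries Col26a1, a collagen, had 33, 38, 29 and 24 counts, and the potassium channel Kcnj8 had 32, 30, 19 and 26. These genes are not part of the counts given above.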

How the data were processed

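RNA from 5-day enteroid cultures was enriched for poly(A) RNA, made into libraries with a stranded kit (NEBNext Ultra Directional) and sequenced as pairs of 100 nucleotides on an Illumina HiSeq. Per the labels, the authors used bcl2fastq 1.8.4 and STAR 2.4.0f1 with GRCm38. The counting program, and its handling of strand and of reads that match several genes, are not given in the sources used here. The authors deposited raw counts per gene in one table per deletion, each with the 4 control libraries, and each table leaves out genes with a summed count below 10. Both deposited tables also hold counts normalised and rounded by the authors (read here as a score), the authors' log2 fold changes and average log2 CPM, and their DESeq and edgeR p-values, and none of these were used.

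The tables were joined on gene identifier, and the counts of the 8 mutant libraries were fitted with edgeR 4.0.16 (filterByExpr, TMM, robust quasi-likelihood fit with no covariate, Benjamini-Hochberg adjustment over all 14111 tested genes). Called genes passed 0.05 after adjustment and differed by more than 2-fold. Each mutant was fitted against control in the same way. The script was tested on simulated counts. Gene positions came from GENCODE M21 and promoters from RefSeq. Alternatives used DESeq2 1.42.0 and edgeR's exact test among others. Intervals and floors cover counting error only.

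The members and gene lists were chosen with earlier results of these data known. Genes were named by rule: Hdac1, Hdac2 and the genes measured by qPCR in the study, the 10 protein-coding called genes with the largest difference in each direction with no overlap and an average log2 CPM not below 2, up to 3 members of each of 43 lists, the 6 genes with the largest opposite changes against control with an average log2 CPM not below 1, and the 5 highest genes listed in 1 table only. Further list members, and the genes in runs of neighbours (at least 4 called genes, each within 500 kb of the next), were named after their values were seen. Some of the genes these rules name are not reported here.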

Additional observations from a re-analysis of the deposited data

Results flagged for a closer look

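In 21 of 318 groups of 4 libraries examined for the named genes, 1 library stood apart from the other 3 by the criterion of Dixon, which compares the gap to the nearest library with the range of the group. That is 6.6% of groups, where chance alone gives about 1 group in 20. The libraries that stood apart were the fourth Hdac1-deleted library in 5 genes, the fourth Hdac2-deleted library in 5, the second and the third Hdac2-deleted library in 3 each, and the other Hdac1-deleted libraries in 1 or 2 each.

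In the fourth Hdac1-deleted library, Akp3 stood at 15.8 CPM against 10.4 to 11.2 in the other 3, Cdkn1a at 259 against 243 to 246, Nr1h3 at 31.6 against 28.1 to 28.4, Tert at 30.7 against 23.9 to 24.9 and Lgr5 at 136 against 150 to 152. In the fourth Hdac2-deleted library, Slc7a8 stood at 38.5 CPM against 32.1 to 32.9, Ciart at 5.99 against 6.59 to 6.6, Cyp26b1 at 21.5 against 26 to 26.8, Slc39a4 at 114 against 122 to 123 and Insig1 at 1149 against 1182 to 1187. Among the other Hdac2-deleted libraries, Ccl20 (6.91 CPM against 7.42 to 7.5), Notch3 (7.07 against 6.23 to 6.33) and Mnda (0.117 against 0) stood apart in the second, and Fer1l6 (10.6 against 8.71 to 8.89), Il18bp (1.21 against 0.867 to 0.921) and Pla2g12b (24.7 against 27.5 to 27.7) in the third. Among the other Hdac1-deleted libraries, Btc (16.8 CPM against 18.7 to 19) stood apart in the first, B3gnt5 (1.17 against 0.691 to 0.756) and Pdgfrb (1.91 against 1.74 to 1.76) in the second, and Lamb1 (2.27 against 1.72 to 1.75) and Sst (2.6 against 2.14 to 2.17) in the third. Of these genes, Lgr5 alone overlapped between the mutants, and its difference did not pass the test.

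Genes listed in only one table carried signal outside the direct comparison. In Hdac1-deleted enteroids the mean level was 6.89 CPM for Slc15a2, 1.73 CPM for Amph, 1.11 CPM for Gm11735, and 1.02 CPM for both 1700030C10Rik and A730046J19Rik. In Hdac2-deleted enteroids it was 1.29 CPM for Col26a1, 1.1 CPM for Kcnj8, 0.854 CPM for Xlr3b, 0.776 CPM for Gm13152 and 0.518 CPM for Gm29125. The difference between the deletions was not tested for these genes.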

How the results depend on the processing

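The 369 and 371 called genes became 3289 and 3428 when differences of any size were counted, as the construction of that count implies. In the other alternatives the counts stayed within 1.5 times, from 264 to 529 higher in Hdac1-deleted and from 297 to 515 higher in Hdac2-deleted enteroids, and between 368 and 424 and between 369 and 421 with 1 library left out. The 264 and 297 come from counting protein-coding genes alone, and 359 and 349 remain without chromosomes 15 and M, both chosen after seeing the data. DESeq2 called 366 and 371, and library size alone in place of TMM 385 and 351. Of the 369 and 371 genes, DESeq2 kept 362 and 369. A test against 1.5-fold called 346 and 453 genes, but kept only 271 of the 369 and 324 of the 371.

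Deviations of same-numbered libraries from their group means had correlations of -0.000869, 0.135, 0.0665 and 0.0372. Those of differently numbered libraries ran from -0.132 to 0.0413. These values do not settle whether the numbers pair the samples. A replicate block gave 366 and 371 called genes. With differences of any size it gave 3474 and 3581 genes, against 3289 and 3428 without the block.

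Of 158 tested named genes, 153 kept direction and side of the threshold throughout. With 1 library left out, Muc2 ran from -0.06375 to 0.1025, with both signs, and the adjusted p of Il18 fell to 0.0374 and 0.00901 without the fourth Hdac1-deleted or the second Hdac2-deleted library. Dclk1, Cd1d1 and Jpx lost significance: Dclk1 without the first (adjusted p = 0.0762) or second (0.0642) Hdac1-deleted library, Cd1d1 under DESeq2 (0.0795) and without 3 single libraries (0.0622 to 0.0841), and Jpx under DESeq2 (0.0899) and without 6 single libraries (0.0792 to 0.137). Of 43 list medians, 13 kept their sign and stayed within 1 SD of the list's level between libraries in every alternative. Of 688 values, 617 did so, 66 moved further, 12 of them with library size alone, and 5 changed sign. The median of the superoxide list, -0.097 as reported, changed sign with no filter (0.01614). That of the Notch list, -0.012 as reported, changed sign with library size alone (0.01562). With 1 library left out, medians changed sign for the phase I (0.017 as reported, -0.001088 to 0.05653), Notch (-0.01823 to 0.002758) and neuronal lists (-0.076 as reported, -0.1244 to 0.03233). The cause was not tested. Depth limits genes of a few counts, such as Ifi204 and Mnda.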
